A study of Mus musculus with 12 samples.

Results

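Expression of 10 selenoprotein and antioxidant genes was described in macrophages sorted from mouse bone marrow, among 18467 gene symbols in the deposited table. The genes are Selenop, Gpx1, Gpx4, Slc7a11, Gclc, Gclm, Txnrd1, Prdx1, Srxn1 and Nfe2l2, chosen by symbol for selenium transport, the glutathione and thioredoxin systems, cystine import and their shared regulator. All 10 were among the 12882 genes that passed the filter on low counts. The list was put together with earlier results of these same libraries in view. The values used for that choice are not recorded, so every value and adjusted p-value of a member below is a description and no independent support.

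The study asked about macrophages of the erythroblastic niche in bone metastasis. RNA sequencing covered 12 libraries in 4 groups of 3, each library from a different mouse per the design text. General macrophages, sorted as CD11b+F4/80+ cells, and niche macrophages, sorted as VCAM1+CD163+CCR3+ cells, came from normal or from metastatic marrow. Metastatic marrow came from female Albino B6 mice that received E0771, a mouse breast cancer line, through the caudal artery at 8 weeks of age, and normal marrow from healthy control mice. No genotype other than the strain, and no time between injection and collection, is given in the labels. The sample titles name both sorts general macrophages, so the population was taken from the antigens of the sort.

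Selenoproteins carry selenocysteine, which the ribosome inserts at a UGA codon that would otherwise end translation. Selenop is a secreted selenoprotein, made chiefly by the liver, that carries selenium to other tissues. Glutathione peroxidases and the thioredoxin and peroxiredoxin enzymes remove peroxides, and Gpx4 reduces lipid hydroperoxides, whose build-up in the presence of iron kills cells by ferroptosis. Macrophages of the erythroblastic island engulf nuclei and worn red cells and recycle their haem iron. Nfe2l2 encodes NRF2, a transcription factor that turns on many antioxidant genes through antioxidant response elements.

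Library totals ranged from 13687957 to 30332442 expected counts, and 3 counts corresponded to between 0.109 and 0.243 CPM, each count as a share of its TMM-scaled library size. Niche normal library A had the lowest total and the fewest genes with at least 10 counts, 7684 against 8762 to 12657 in the others. Counts were uneven among replicates: 46.5% of tested genes had a library at or under 3 counts beside one of at least 100 counts in the same group. Of the sorting antigens, Vcam1 was at 2088 to 2248 CPM in the niche normal group and 47.6 to 86.7 CPM in the general normal group, and Cd163 and Ccr3 were also called higher there. Itgam (CD11b) was at 628 to 852 CPM in the general normal and 328 to 547 CPM in the niche normal group. Adgre1, which encodes the F4/80 antigen of the general sort, was lower in that sort, at 103 to 145 CPM against 343 to 589 CPM (log2 difference 1.96, edgeR adjusted p = 0.00246). In both sorts, neutrophil and monocyte markers summed above a list of 10 general macrophage genes. General normal libraries held 264 to 355 CPM summed over these 10 genes, against 21590 to 22550 CPM over 12 neutrophil genes and 12030 to 13070 CPM over 8 monocyte genes. Niche normal libraries held 1473 to 2242, 10950 to 13690 and 4489 to 5817 CPM. The niche libraries had 1.24% to 1.80% of counts in mitochondrial genes and 6.65% to 14.5% in genes of the small RNA U3, and the general libraries 0.0846% to 0.400% and 17.6% to 24.2%, without overlap. Marco was at 0 in every library of 3 groups.

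In normal marrow, Selenop and Gclm were higher in niche than in general macrophages, by 5.92-fold and 6.65-fold. In metastatic marrow Selenop alone of the 10 passed, at 7.44-fold. By edgeR with an adjusted p-value under 0.05 over all tested genes, 2 of 10 members were called in normal marrow, both higher. Of all tested genes 2.47% were called there, with 1.5% higher. In metastatic marrow 1 of 10 was called, also higher, where 0.831% of all tested genes were called and 0.574% were higher. In neither population did edgeR call a member between metastatic and normal marrow. Of all tested genes, 0.0155% were called there in general macrophages and 0.00776% in niche macrophages. At an unadjusted p-value under 0.05, edgeR had 660 and 1642 genes in these comparisons (5.12% and 12.7%). Of the 10 members, 3 had such a p-value in general macrophages (Selenop, Gclm and Slc7a11) and 1 in niche macrophages (Selenop). The median log2 change of the members was 0.51 and 0.69 in the comparisons of populations, beside 0.19 and 0.04 for all tested genes. The second median counts Gpx4 (4.47) and Srxn1 (4.51), whose counts were near 0 in many libraries. With metastasis the medians were -0.15 in general and 0.01 in niche macrophages, beside -0.01 and -0.17 for all tested genes.

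**Figure D1:**
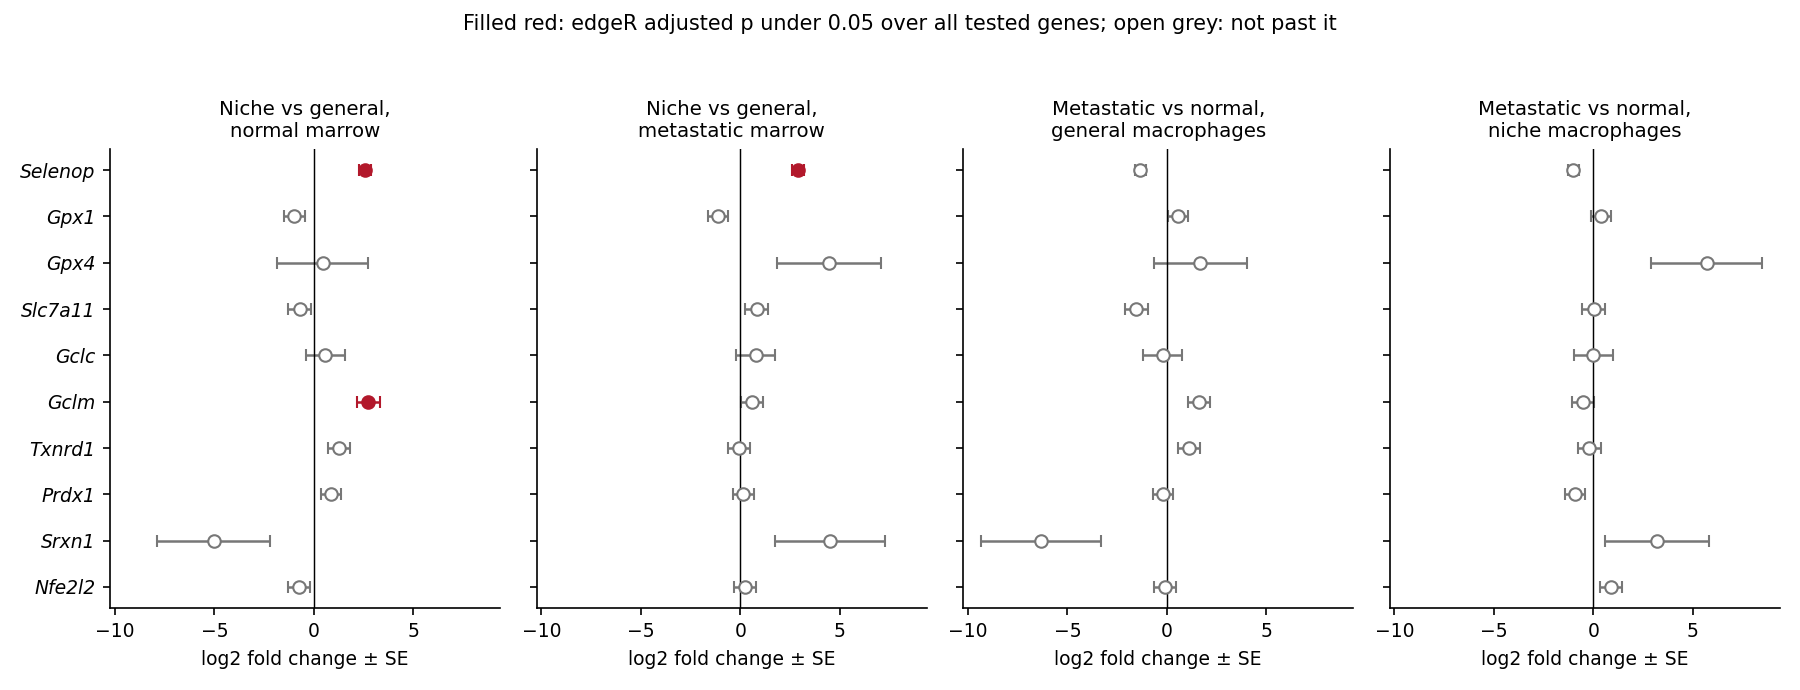
Fitted log2 fold changes of the 10 genes with their standard errors in 4 comparisons, from the edgeR model over 12 libraries. Filled points mark Selenop in both comparisons of populations and Gclm in normal marrow. The wide bars of Gpx4 and Srxn1 belong to genes at or under 3 counts in 6 of 12 libraries each.

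Of the 10 members, 4 encode selenoproteins, and their coding sequences differ in how often the selenocysteine codon occurs. In the Selenop transcript ENSMUST00000159216.8 of GENCODE M21 (build GRCm38, the sequence of mm10), 10 of 380 codons are in-frame TGA. Gpx1, Gpx4 and Txnrd1 have 1 each, at codon 47 of 201, 73 of 197 and 498 of 499. The codons are shown with 12 bases on each side, 5′ to 3′ on the coding strand, with TGA in capitals, because they are the feature that sets these transcripts apart from the other 6. The Selenop codon shown is its first, codon 59, at chr15:3274848-3274850 on the plus strand.
Selenop: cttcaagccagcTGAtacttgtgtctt
Gpx1: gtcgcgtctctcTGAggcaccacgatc
Gpx4: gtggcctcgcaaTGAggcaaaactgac
Txnrd1: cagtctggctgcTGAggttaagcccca
The other 9 Selenop codons lie between codons 259 and 377. The stretch chr15:3279612-3279707 (plus strand, last coding exon) holds 5 of them within 96 bases, again with in-frame TGA in capitals.
Selenop end: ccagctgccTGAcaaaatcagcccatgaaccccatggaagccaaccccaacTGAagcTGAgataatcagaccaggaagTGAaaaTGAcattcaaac

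Selenop (chr15:3268547-3280508, GRCm38) was the most abundant member in niche macrophages. General macrophages held 213, 209 and 110.2 CPM in normal marrow and 45.4, 87.7 and 77.8 CPM in metastatic marrow. Niche macrophages held 1047.5, 1121 and 983 CPM in normal marrow and 522, 541 and 505 CPM in metastatic marrow. Every niche library lay above every general library, and within each population every library from metastatic marrow lay below every library from normal marrow. The difference between populations was 2.56 ± 0.30 on the log2 scale in normal marrow (SE; edgeR adjusted p = 3.74e-05). The same difference in metastatic marrow was 2.89 ± 0.30 (SE; edgeR adjusted p = 1.79e-05). Both calls held when any 1 library was left out.

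Between metastatic and normal marrow, Selenop had a log2 change of -1.34 ± 0.29 in general macrophages (SE; edgeR adjusted p = 0.232). In niche macrophages the change was -1.01 ± 0.28 (SE; edgeR adjusted p = 0.279). Neither passed in edgeR over all genes, while DESeq2 called both, at adjusted p = 0.000622 and 0.0145, and limma-voom called the change in niche macrophages, at adjusted p = 0.00324. The 2 changes differed by 0.33 ± 0.40 (SE; edgeR adjusted p = 0.948), so no difference in the metastasis effect between the populations was detected. Groups of 3 that do not overlap, with metastatic marrow lower in both populations, were found for 89 of all tested genes (0.691%). The effect averaged over both populations, a contrast added after the data were seen, was -1.17 ± 0.20 (SE; edgeR adjusted p = 0.028), a comparison in which 0.0543% of tested genes were called. That call was lost in 7 of 12 fits that left out 1 library, with adjusted p up to 0.0993, and with scaling by library size only (adjusted p = 0.107).

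Markers of island macrophages were higher in the niche sort, as Selenop was, with 13 of 15 tested genes called in each marrow. The 16 listed genes, which include the sorting antigens Vcam1, Cd163 and Ccr3 and the iron genes Slc40a1 and Hmox1, summed to 686 to 744 CPM in general normal and 10150 to 12660 CPM in niche normal libraries. In metastatic marrow the sums were 476 to 684 and 4348 to 7956 CPM. All 16 were detected, and the niche sums from metastatic marrow lay below those from normal marrow without overlap. The median log2 change of the 15 tested island markers with metastasis was -0.99 in niche and -0.17 in general macrophages, beside -1.01 and -1.34 for Selenop. Macrophage markers gave medians of -1.13 and -0.20. Monocyte marker sums were higher in metastatic marrow without overlap, at 17170 to 19010 against 12030 to 13070 CPM in general and 8268 to 10790 against 4489 to 5817 CPM in niche macrophages. Of the 8 monocyte genes, Chil3 was called higher by edgeR in the effect averaged over both populations. Erythroid markers also summed higher with the niche sort, at 842 to 1318 CPM in the niche normal group against 16.4 to 114 CPM in the general normal group. B and plasma cell markers did so too, at 1086 to 2220 against 156 to 236 CPM in normal and 1095 to 3912 against 97.1 to 124 CPM in metastatic marrow. Of 8 tested, Pax5, Jchain, Igkc and Ighm were called higher in each marrow. In bulk libraries fewer cells of a type and less RNA per cell cannot be told apart, and the part of these markers in the Selenop differences was not tested.

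Selenop overlaps an antisense gene. The last exon of Selenop and the end of Ccdc152, on the minus strand, share 439 bases at chr15:3280070-3280508, and the strandedness of the counting is not given in the sources used here. Ccdc152 held 124, 279 and 197 CPM in general normal and 1590, 1385 and 1430 CPM in niche normal libraries, and again no niche library overlapped a general one. Its log2 differences between populations were 2.88 ± 0.43 in normal and 3.21 ± 0.43 in metastatic marrow (SE; edgeR adjusted p = 0.000518 and 0.000274). Reads of the shared bases cannot be assigned to 1 strand from the table. With both genes summed, Selenop kept its calls between populations, at 2.74 and 3.08, and its metastasis changes were -1.27 and -0.93.

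**Figure D2:**
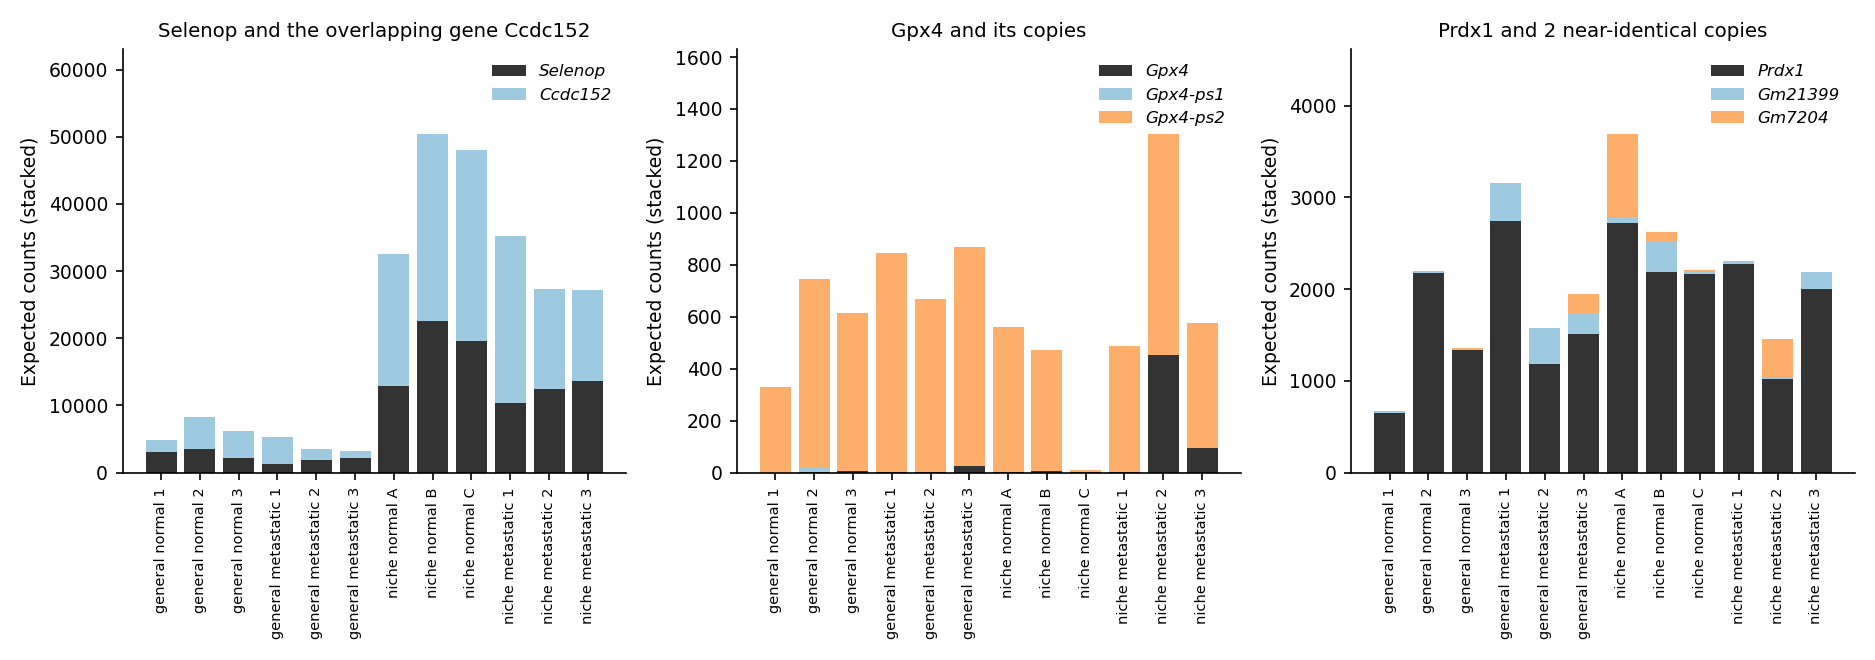
Expected counts of 3 members stacked with genes that overlap or nearly copy them, for each of the 12 libraries (1 bar per library). Selenop and Ccdc152 are both high in the 6 niche libraries, whereas most counts of the Gpx4 family sit in Gpx4-ps2, with niche metastatic library 2 holding the most Gpx4 counts (452) and niche normal library C few counts of either.

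Gpx1, the abundant cytosolic glutathione peroxidase, had the opposite order of populations, and did not pass. Its levels were 95.9, 88.3 and 58.1 CPM in general and 43.2, 21.0 and 59.1 CPM in the niche normal group, which overlap by 1 library. In metastatic marrow they were 114.8, 99.5 and 138 CPM in general and 73.2, 49.7 and 39.7 CPM in niche macrophages, without overlap. The log2 differences were -0.97 ± 0.51 and -1.12 ± 0.51 (SE; edgeR adjusted p = 0.297 and 0.562). General metastatic libraries all lay above those from normal marrow, at 0.54 ± 0.51 (SE; edgeR adjusted p = 1).

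Txnrd1, the cytosolic thioredoxin reductase, was at 46.0, 16.0 and 62.4 CPM in general normal libraries and 90.3, 74.7 and 106 CPM in general metastatic libraries. The metastatic libraries were all higher, by 1.12 ± 0.57 on the log2 scale, without passing (SE; edgeR adjusted p = 0.944). Niche libraries spread from 54.2 to 172 CPM, and the niche groups overlapped each other and the general groups.

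Gpx4, the peroxidase of membrane lipids, could not be measured with certainty. It held 0 to 24.3 expected counts in the 9 libraries other than niche metastatic, and 3.03, 452 and 94.7 counts in the niche metastatic libraries 1, 2 and 3. Its processed copy Gpx4-ps2, at chr10:45875291-45876086, matches the Gpx4 transcript at 99.7% over 733 bases and held 328 to 852 counts in 11 libraries and 9 counts in niche normal library C. Reads of so similar a pair can be split either way. Summed with its copies, Gpx4 was at 21.2 to 57.0 CPM in 11 libraries and 0.552 CPM in niche normal C. The sum was 0.49 lower on the log2 scale in niche than in the general normal group (log2 change -0.49; edgeR adjusted p = 0.901), where Gpx4 alone had a fitted change of 0.44.

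**Figure D3:**
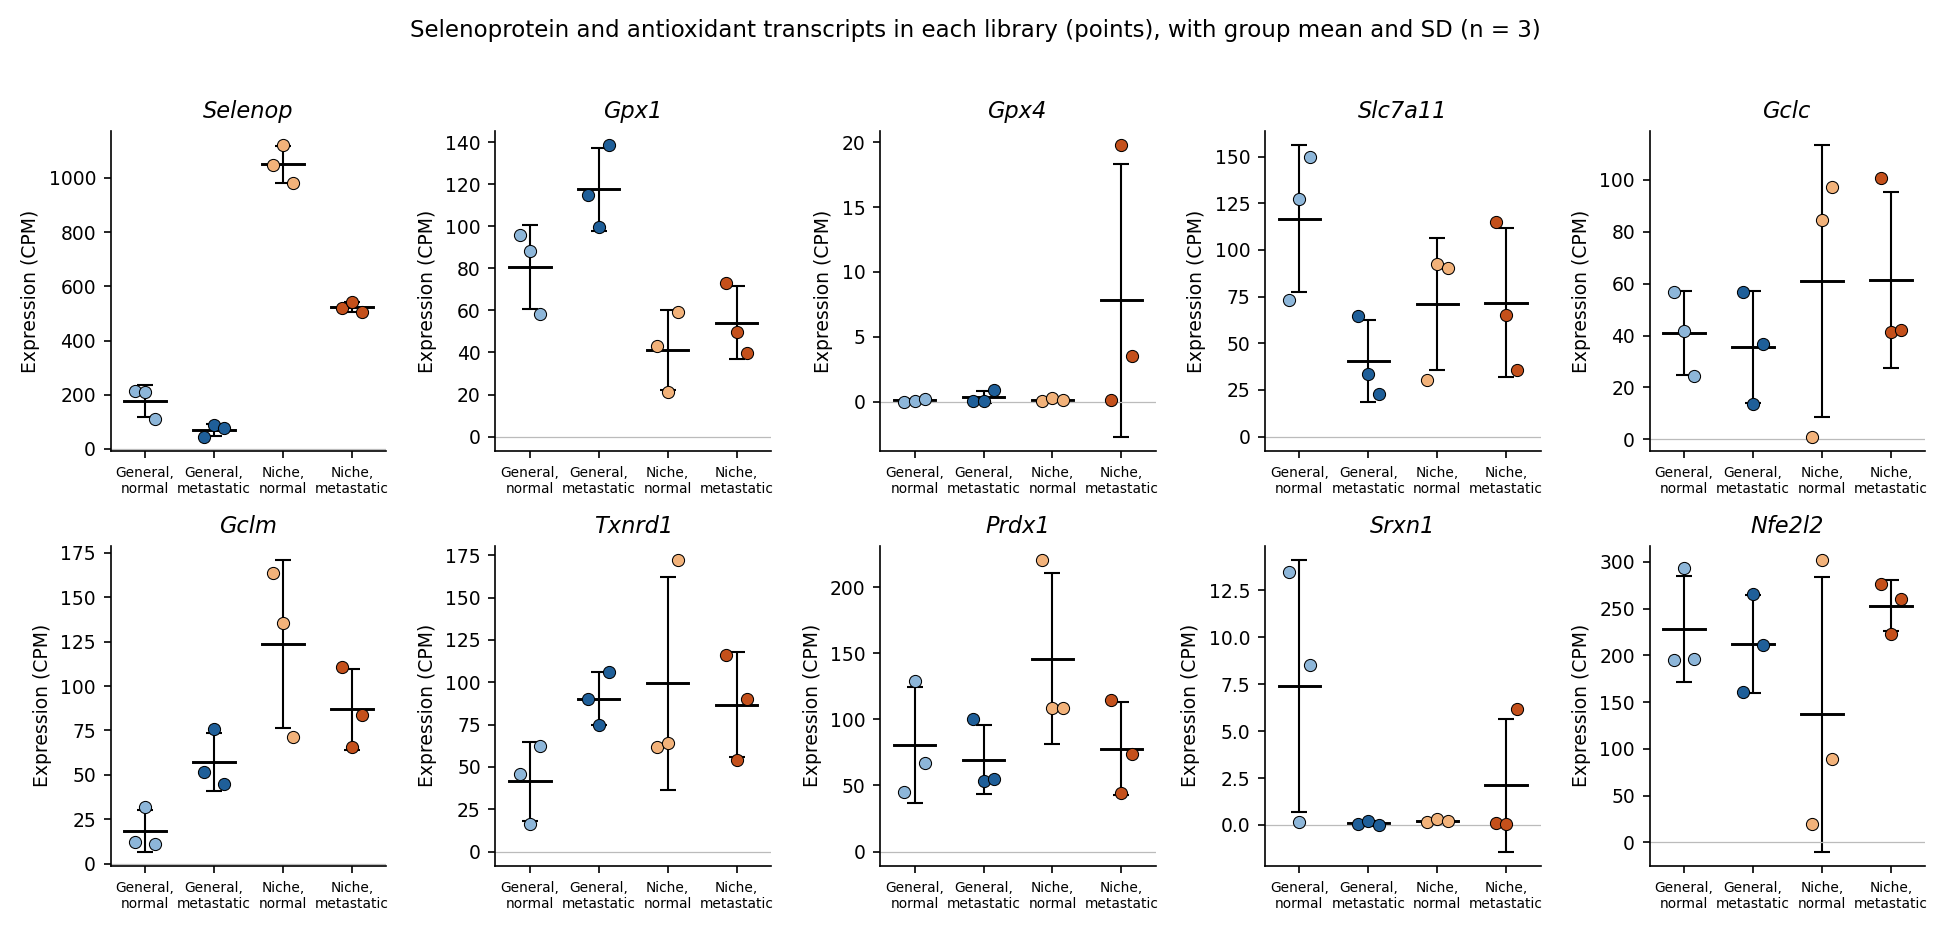
CPM of each of the 10 genes in each of 12 libraries (points), with the mean (line) and SD (bar) of the 3 libraries of each group. Selenop separates the niche groups, at 505 to 1121 CPM, from the general groups, at 45.4 to 213 CPM. Niche normal library A is the lowest in Gclc and Nfe2l2, and niche normal C is the next lowest in Nfe2l2.

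Glutathione is built from cysteine, which enters as cystine through Slc7a11, and its first step is run by the catalytic subunit Gclc with the modifier subunit Gclm. Gclm was at 12.3, 32.2 and 11.3 CPM in general and 164, 135 and 71.5 CPM in the niche normal group. The metastatic groups had Gclm at 51.7, 75.6 and 44.7 CPM in general and 111, 65.9 and 83.7 CPM in niche macrophages. The general libraries from normal marrow lay below all 9 others. The difference between populations was 2.73 ± 0.58 in normal marrow (SE; edgeR adjusted p = 0.013) and 0.60 ± 0.54 in metastatic marrow (SE; edgeR adjusted p = 1). The call in normal marrow was lost without general normal library 1 or 3 (edgeR adjusted p = 0.0821 and 0.0801) and with limma-voom (adjusted p = 0.116) or with only the 6 libraries compared (edgeR adjusted p = 0.099). Metastatic marrow was higher than normal in general macrophages by 1.63 ± 0.56, without passing (SE; edgeR adjusted p = 0.944). The difference of the metastasis effects was -2.14 ± 0.78 and did not pass either (SE; edgeR adjusted p = 0.509).

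Gclc did not follow Gclm. It was at 56.8, 41.8 and 24.3 CPM in general normal libraries and 56.7, 13.5 and 36.6 CPM in general metastatic libraries. In niche macrophages it was at 1.06, 84.7 and 97.3 CPM in normal and 101, 41.3 and 42.1 CPM in metastatic marrow. Library A of the niche normal group, with 13 counts, was low by itself, and the groups overlapped in every comparison. The log2 difference between populations in normal marrow was 0.58 ± 0.97 with it and 1.17 without it (edgeR adjusted p = 0.855 and 0.385).

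Slc7a11, the cystine carrier, was at 73.1, 127 and 149.6 CPM in general normal libraries and 64.8, 33.8 and 23.0 CPM in general metastatic libraries. The metastatic libraries were all lower, with a log2 change of -1.53 ± 0.60 that did not pass (SE; edgeR adjusted p = 0.944). Niche libraries spread from 30.2 to 115 CPM with no order by marrow. The long Slc7a11 transcript also matches the alpha-tubulin genes Tuba1a, Tuba1b and Tuba1c on the opposite strand, at 92.5% to 93.6%.

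Prdx1, a cytosolic peroxiredoxin, was at 44.9, 129 and 66.8 CPM in general normal and 221, 109 and 109 CPM in niche normal libraries, which overlap. Its log2 difference was 0.86 ± 0.51 (SE; edgeR adjusted p = 0.363). The pseudogenes Gm21399 and Gm7204 match it at 98.3% and 97.5% over 597 bases, and Gm7204 held 921 counts in niche normal library A. Summed with both, the difference was 1.15 (edgeR adjusted p = 0.235). Srxn1, which repairs overoxidised peroxiredoxins, was at or under 3 counts in 6 libraries. It held 196, 3 and 171 counts in general normal libraries and 167 counts in niche metastatic library 3, with at most 6 counts in any other, so its fitted changes carry large errors and are not interpreted.

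Nfe2l2 itself was among the more abundant members and showed no difference that passed. It was at 195, 293 and 196 CPM in general normal libraries and 161, 265 and 211 CPM in general metastatic libraries. Niche libraries held 19.8, 302 and 89.4 CPM in normal and 277, 223 and 259.7 CPM in metastatic marrow. The niche normal libraries alone were widely spread, with A lowest and C next. The log2 difference between populations in normal marrow was -0.73 ± 0.56 (SE; edgeR adjusted p = 0.522). It was -0.21 without library A (adjusted p = 0.842) and -2.05 without library B, which alone brought it past the threshold (adjusted p = 0.0289).

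Groups of 3 that did not overlap were counted next. In normal marrow 2 members were higher in niche macrophages, Selenop and Gclm, a pattern seen in 10% of all tested genes. In metastatic marrow Selenop was higher and Gpx1 lower, and 8.34% of tested genes were higher and 8.9% lower without overlap. Between metastatic and normal marrow, Gpx1, Gclm and Txnrd1 were higher and Selenop and Slc7a11 lower in general macrophages, where 7.35% of tested genes were higher and 5.67% lower without overlap. In niche macrophages Selenop alone was lower, where the share was 7.13%.

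Per kilobase of transcript, Selenop led the members in both niche groups, at 504 ± 33.0 CPM per kb in normal and 251 ± 8.66 in metastatic marrow (SD, n = 3 each). The next members were Prdx1, at 63.7 ± 28.1, and Nfe2l2, at 102 ± 11.1, far below Selenop relative to their spread. Lengths were those of the protein-coding transcript chosen for each gene (2085 bases for Selenop, 2294 for Prdx1), and other transcripts were not tried. In the general normal group Nfe2l2, Selenop and Gpx1 stood at 92.2 ± 22.8, 85.2 ± 28.0 and 75.4 ± 18.6 CPM per kb, within their spread. In the general metastatic group Gpx1 stood first at 109.7 ± 18.3 and Nfe2l2 second at 85.8 ± 21.1, while Selenop, at 33.7 ± 10.6, was close to Prdx1, at 30.4 ± 11.5. Srxn1 and Gpx4 were last in the groups of normal marrow. That rank of Gpx4 leaves out reads assigned to its near-identical copy Gpx4-ps2. Summed with its copies and before division by length, Gpx4 was at 32.5 ± 10.9 CPM in the general normal group. In the niche normal group the sum was 23.2 ± 22.4 CPM (SD, n = 3 each).

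Promoter windows, from 250 bases before to 50 after each start in RefSeq GRCm38.p6, were searched for the antioxidant response element core TGACNNNGC on both strands, since several members are known NRF2 targets. Of the 10 members, 9 had a window, 16 in all. The core was found in 5 of the 9, and in 12.4% of all 32851 windows and 14% of all genes. The sites are shown with 6 bases on each side, 5′ to 3′ on the gene's strand, with the match in capitals. In 4 genes it lies on the opposite strand and reads GCNNNGTCA.
Gclm, chr3:122245417-122245437, plus strand: ccgggcGCACCGTCAactctc
Txnrd1, chr10:82859108-82859128, plus strand: atttttGCTTTGTCAttctga
Prdx1, chr4:116685460-116685480, plus strand: gaaagcGCTGAGTCAtccccc
Srxn1, chr2:152105546-152105566, plus strand: tgggcaGCTAGGTCAgagtga
Nfe2l2, chr2:75704889-75704909, minus strand: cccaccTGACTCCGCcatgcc
The match lies 134 bases before the start in Gclm, 92 in Txnrd1, 133 in Prdx1 and 240 in Nfe2l2, and within the 50 bases after it in Srxn1. Of these sites, the Prdx1 site alone is the full TGACTCAGC, which 0.454% of all windows hold. Forms of the element that begin with TGAG were not searched, and the Srxn1 window also holds TGAGTCAGC before its start. Gclm was called between populations and the other 4 genes with the core were not, while Selenop was called and its windows held no match.

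Other genes of these pathways were described from 8 lists, with calls by edgeR unless another tool is named. Over all tested genes, 1.5% were called higher and 0.97% lower in niche than in general macrophages of normal marrow, and 0.574% and 0.256% in metastatic marrow. In these comparisons 19% and 8.6% of all tested genes had an unadjusted p-value under 0.05. The shares called were 14.2% and 3.73% with DESeq2, and 1.44% and 1.38% with limma-voom. Among 17 tested selenoproteins, Selenop was the 1 called gene in either comparison of populations, and the medians were 0.58 in normal and 0.08 in metastatic marrow. Selenot, an endoplasmic reticulum selenoprotein, was at 211, 277 and 243 CPM in general normal and 127, 122 and 147 CPM in niche normal libraries, without passing (edgeR adjusted p = 0.228). None of 9 tested genes for selenium supply and selenocysteine insertion was called by edgeR, DESeq2 or limma-voom in either comparison, and 0 had an unadjusted p-value under 0.05 in edgeR. Sephs2, which makes the selenium donor, had the smallest p-value of that list in normal marrow (edgeR adjusted p = 0.268), with 27 counts in niche normal library A.

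Gclm was the 1 called gene of 16 in the glutathione list, in normal marrow, where DESeq2 called 3 and limma-voom 0. In the thioredoxin and peroxiredoxin list edgeR called none of 16, with 4 at an unadjusted p-value under 0.05 in normal and 1 in metastatic marrow, and DESeq2 called Prdx3 in normal marrow (adjusted p = 0.0325). Abcc1, an exporter of glutathione conjugates, and Prdx3, the mitochondrial peroxiredoxin, were both higher in the niche normal group without overlap. Abcc1 was at 109 ± 26.4 against 34.4 ± 11.96 CPM, and Prdx3 at 73.1 ± 8.87 against 18.9 ± 16.9 CPM (SD, n = 3 each). Neither passed edgeR (adjusted p = 0.144 and 0.215), and DESeq2 called both. In metastatic marrow Gsr, glutathione reductase, was lower in niche macrophages without overlap, at 714 ± 25.8 against 1133 ± 133 CPM (SD, n = 3 each; adjusted p by edgeR = 0.487, by limma-voom 0.0184).

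Of 28 tested Nfe2l2 regulators and targets, edgeR called 2 higher and 1 lower in the niche normal group, DESeq2 called 9 and limma-voom 2. Hmox1, haem oxygenase, was at 1101 ± 267 against 61.6 ± 13.3 CPM (SD, n = 3 each), a log2 difference of 4.16 ± 0.33 (SE; edgeR adjusted p = 3.48e-07). Bach1, a repressor that haem inactivates and that binds the same promoter elements as NRF2, fell by 1.30 ± 0.26 on the log2 scale (edgeR adjusted p = 0.00863). It was at 555, 602 and 513 CPM in the general and 222, 289 and 167 CPM in the niche group, which do not overlap. Gclm was the other gene higher. In metastatic marrow Hmox1 was the 1 gene called by edgeR and by DESeq2, while limma-voom also called Gsr. The Hmox1 difference was 3.27 ± 0.32 (SE; edgeR adjusted p = 9.7e-06), and Bach1, at 255 to 290.1 CPM in niche macrophages and 265 to 386 CPM in general ones, overlapped. The medians of this list were 0.37 and 0.21.

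Cybb, the catalytic subunit of the phagocyte NADPH oxidase that makes superoxide, was lower in the niche normal group. It was at 2487, 2925 and 2366 CPM in the general and 1437, 1419 and 1321 CPM in the niche group, a log2 change of -0.90 ± 0.18 (SE; edgeR adjusted p = 0.00739). EdgeR called none of the other 7 tested oxidase genes there, while DESeq2 also called Ncf1. In metastatic marrow edgeR and DESeq2 called none of 8, with 2 at an unadjusted p-value under 0.05 in edgeR, and limma-voom called Cybb. All 8 fitted changes were below 0 there (median -0.41). Among 8 tested superoxide, peroxide and methionine repair genes edgeR called none, with 4 at an unadjusted p-value under 0.05 in normal and 2 in metastatic marrow. DESeq2 called Sod2 and Cat, which were higher, and Mt1 and Msra, which were lower, in normal marrow, and Mt2 in metastatic marrow, and limma-voom called 0. Sod2, the mitochondrial superoxide dismutase, was at 119 ± 25.6 CPM in niche and 36.4 ± 9.74 CPM in the general normal group (SD, n = 3 each; adjusted p by edgeR = 0.0791).

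Of 22 tested genes of iron-driven lipid oxidation, 3 were higher in the niche normal group, where 1.5% of all tested genes were: Hmox1, the iron exporter Slc40a1 (2.63 ± 0.25) and the transferrin receptor Tfrc (1.61 ± 0.41, SE; edgeR adjusted p = 3.38e-06 and 0.0439). In metastatic marrow Hmox1 and Slc40a1 (1.89 ± 0.24) were higher, and Alox5ap, the 5-lipoxygenase activating protein, was lower at -1.58 ± 0.36 (SE; edgeR adjusted p = 0.000153 and 0.0411). Tfrc lost its call without any 1 of 4 libraries, the 3 general normal ones and niche normal C (adjusted p up to 0.205), with only the libraries compared, with limma-voom, and after removal of haemoglobin, immunoglobulin, mitochondrial and small RNA genes (adjusted p = 0.135, 0.352 and 0.0527). Alox5ap lost its call without general metastatic library 2 or 3 or niche metastatic library 2 or 3 (adjusted p up to 0.258), with only the libraries compared, with RLE scaling, and with library size only (adjusted p = 0.0859, 0.0533 and 0.102). Slc40a1 and Hmox1 are also island markers, and neutrophil and monocyte sums, which were lower in the niche libraries of each marrow without overlap, moved with Cybb and Alox5ap. Erythroid marker sums moved with Tfrc in normal marrow, at 842 to 1318 CPM in niche and 16.4 to 114 CPM in general libraries. The part of these cells in the result was not tested.

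**Figure D4:**
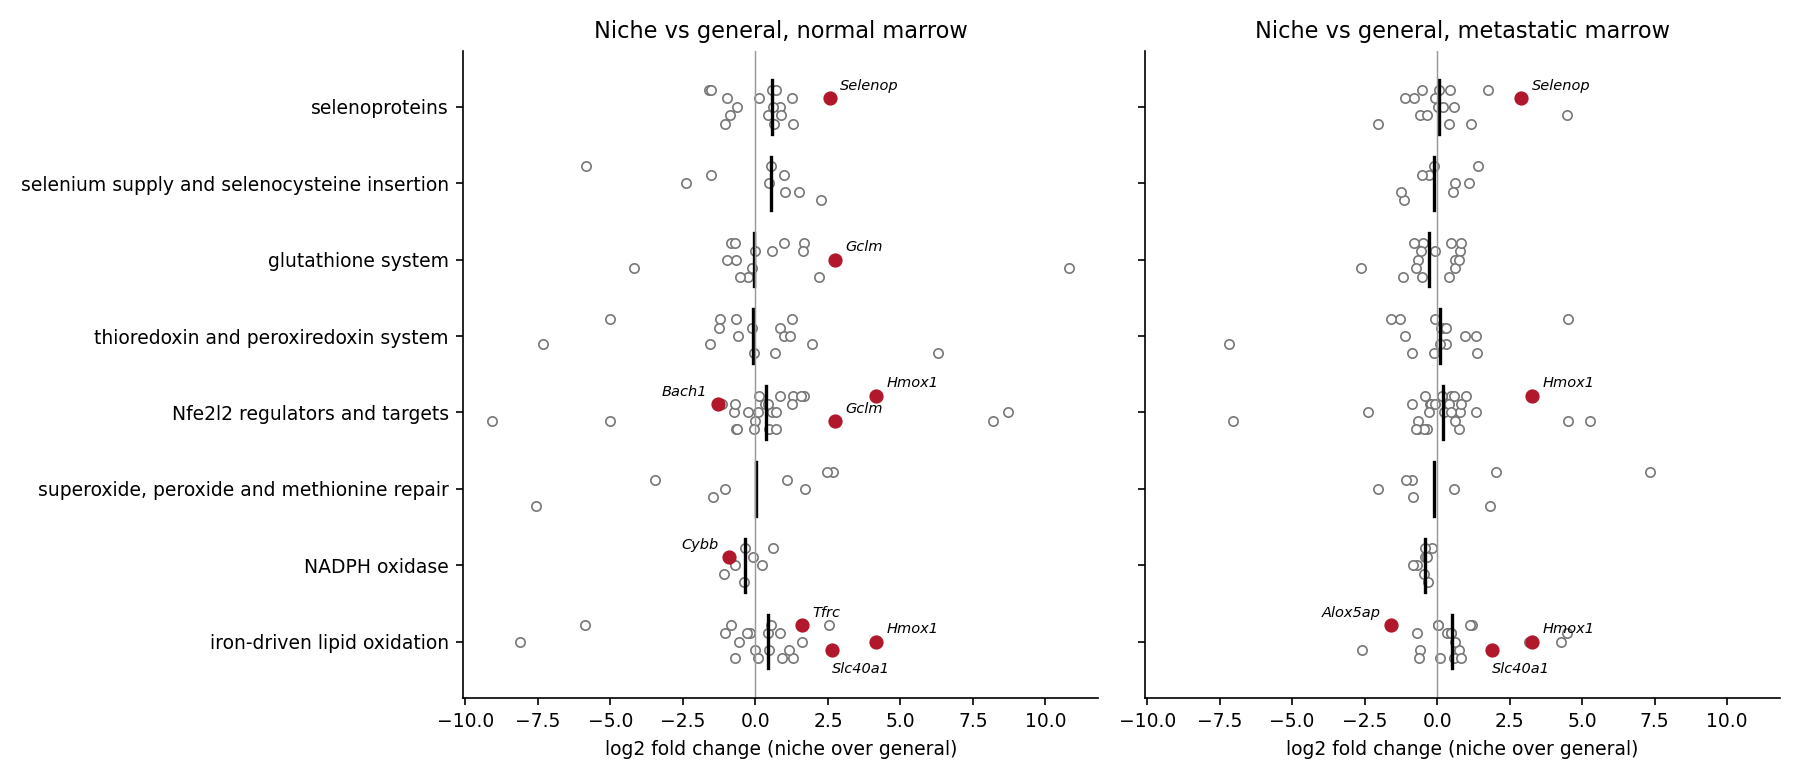
Fitted log2 difference between niche and general macrophages for each tested gene of 8 lists, in normal (left) and metastatic marrow (right). Filled points are genes called by edgeR, open points are not, and black lines are list medians. Points beyond 5 on either side, apart from called genes, are genes near 0 counts in several libraries.

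With metastasis, no gene of the 8 lists was called in either population by edgeR, with 13 of 108 at an unadjusted p-value under 0.05 in general and 10 in niche macrophages, where the shares of all tested genes were 5.12% and 12.7%. DESeq2 called 1 and 4 of them and limma-voom 1 and 3, members included, where DESeq2 called 1.09% and 7.41% of all tested genes and limma-voom 0.179% and 0.0854%. With the 10 members set aside, the smallest p-values of their lists in general macrophages belonged to Tfrc, at 137 ± 60.4 in metastatic against 53.9 ± 17.7 CPM in normal marrow, and Bach1, at 327 ± 60.4 against 557 ± 44.6 CPM (SD, n = 3 each; adjusted p by edgeR = 0.944 for both). Cybb had 1980.3 ± 172 against 2592 ± 294 CPM (SD, n = 3 each), without overlap, and was called lower by limma-voom (adjusted p = 0.0386) and not by edgeR (adjusted p = 0.944). Selenok, Secisbp2, Gss, Prdx4 and Msra had the smallest p-values of the other lists, with adjusted p from 0.944 to 1. In niche macrophages Slc40a1 was at 1259, 798 and 948 CPM in metastatic against 2839, 2360.1 and 1927 CPM in normal marrow, without overlap, and did not pass (edgeR adjusted p = 0.0825). Slc40a1 was called without the low-count filter, with DESeq2 and with limma-voom (adjusted p = 0.0208, 1.38e-05 and 0.000403), and without niche normal library B or C (edgeR adjusted p = 0.0401 and 0.0222). Hmox1 was at 554 ± 243 against 1101 ± 267 CPM, also without overlap (SD, n = 3 each; adjusted p by edgeR = 0.313, by DESeq2 0.0252 and by limma-voom 0.0444). Mt1, a metallothionein that binds zinc and copper, held 251, 935 and 562 counts in the niche metastatic group and 1, 2 and 1 counts in those from normal marrow (adjusted p = 0.278 in edgeR and 5.91e-06 in DESeq2). Members aside, Selenoi, Eefsec, Gss, Txn1 and Ncf1 had the smallest p-values of the remaining lists, with adjusted p from 0.381 to 0.509.

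The difference of the metastasis effects between the populations gave no call (0% of tested genes) in edgeR, with 1016 genes (7.89%) at an unadjusted p-value under 0.05, while DESeq2 called 410 (3.18%) and limma-voom 0. Of the lists, Mt1 had the smallest p-value (edgeR adjusted p = 0.452, and called by DESeq2 at adjusted p = 0.000336) and Bach1 the next, at 1.06 ± 0.36 on the log2 scale (SE; edgeR adjusted p = 0.46). Members aside, Selenot, Cybb, Prdx4, Eefsec, Mgst3 and Aifm2 had the smallest p-values of the other lists, with adjusted p from 0.598 to 0.887. The last 4 of these rested on counts near 0 in most libraries.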

How the data were processed

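The authors deposited 1 table of expected counts per gene symbol, not normalized; 73.9% of its values were whole, which gave the unit. The submitters' processing notes name STAR 2.7.3a, Partek, DESeq2 1.40.2, R 4.3.1 and build mm10; the annotation and strandedness are not given in the sources used here. The labels' protocols describe depletion of ribosomal RNA before library preparation.

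Columns were matched to samples by name. Niche normal columns carry other replicate numbers than their sample titles, the same as those of the other groups, and are called A, B and C. Expected counts were rounded, filtered with filterByExpr (12882 genes), TMM-scaled and fitted as 4 group means over 12 libraries with edgeR 4.0.16 quasi-likelihood tests (R 4.3.3), with Benjamini-Hochberg adjustment over all tested genes. A gene was called at an adjusted p under 0.05. Standard errors came from the F statistic. No 2 replicates agreed within sampling noise (chi-square per degree of freedom 139 to 411). Floors of 3 counts cover counting error only. The members, gene lists and tests were chosen with earlier results of these data known. All 10 members are named; of each list, up to 3 called genes with the smallest p-values per comparison of populations, otherwise the 1 with the smallest, and 1 gene per list in the other comparisons. Sorting antigens, called B cell markers, and genes that overlap or resemble members are also named beside results.

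Sequences and positions came from GENCODE M21 (GRCm38) and RefSeq GRCm38.p6; similar transcripts were searched with blastn 2.17.0. The fit was repeated with RLE factors, without scaling factors, without the filter, with at least 10 counts required throughout, with DESeq2 1.42.0, with voom in limma 3.58.1 (quality weights), on the compared libraries alone, after removal of haemoglobin, immunoglobulin, mitochondrial and small RNA genes, with a replicate block, and without each library in turn. Summing of copies and the averaged metastasis effect were added after seeing the data. Simulated counts were also run through the fit, with a pass mark set only at a spread below that of these data. No support is drawn from that run.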

Additional observations from a re-analysis of the deposited data

Results flagged for a closer look

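Sod2, the mitochondrial superoxide dismutase, is listed because its libraries moved in opposite directions with metastasis in the 2 populations. General macrophages held 44.2, 25.5 and 39.6 CPM in normal and 55.5, 46.1 and 46.8 CPM in metastatic marrow, all metastatic libraries being higher. Niche macrophages held 145, 119 and 93.8 CPM in normal and 88.1, 80.2 and 55.3 CPM in metastatic marrow, all metastatic libraries being lower. The log2 changes were 0.44 ± 0.48 and -0.68 ± 0.48, and their difference was -1.12 ± 0.68 (SE; edgeR adjusted p = 0.68), which did not pass. Sod2 came from a search of the members and named genes. The share of all tested genes with such opposite moves was not counted. With metastasis, 13% of tested genes did not overlap in general and 12.8% in niche macrophages, in either direction.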

How the results depend on the processing

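Of 788 results for single members across alternatives, 732 kept their direction and side of the threshold, 12 lost a call, 4 gained one and 40 changed sign, 38 of these with a log2 change within 1 SE of 0. Selenop kept its calls between populations in all alternatives. Where members were at or under 3 counts (Gpx4 and Srxn1), low and uneven counts limit any statement. For Gpx4 the split of reads with its near-identical copy Gpx4-ps2 limits it too. Library size scaling moved the median of all genes from 0.04 to 0.29 on the log2 scale between populations in metastatic marrow and from -0.17 to 0.06 with metastasis in niche macrophages.

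DESeq2 called 1825 genes between populations in normal marrow, 480 in metastatic marrow, 141 with metastasis in general and 954 in niche macrophages, 410 for the difference of effects and 591 for the averaged effect, against 318, 107, 2, 1, 0 and 7 in edgeR. With limma-voom the counts were 186, 178, 23 and 11 in the first 4 and 11 for the averaged effect. With only the compared libraries they were 163 in normal marrow and 0 with metastasis in niche macrophages. Library size only gave 0 with metastasis in each population and 4 for the averaged effect. No filter gave 5, 3 and 12 for these 3 comparisons, and in niche macrophages 10 counts in every library gave 3, RLE scaling 0, and removal of haemoglobin, immunoglobulin, mitochondrial and small RNA genes 2. Leaving out 1 library gave 176 to 402 genes between populations in normal marrow, 66 to 83 in metastatic marrow, 0 to 0 with metastasis in general and 0 to 66 in niche macrophages (66 without niche normal B), 0 to 16 for the difference and 5 to 48 for the averaged effect. The cause was not tested.

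Of the members, 1 was called in normal marrow with limma-voom and with only the compared libraries, and 1 to 3 without 1 library. With metastasis DESeq2 called 1 member in general and 1 in niche macrophages, and limma-voom 1 in niche macrophages. For the averaged effect library size only gave 0 members and leaving out 1 library 0 to 1.

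Signs changed as follows, with ranges over fits that left out 1 library. In normal marrow, Gpx4 was -0.49 with copies summed (range -0.18 to 2.06), and Gclc -0.19 with limma-voom. In metastatic marrow, Txnrd1 was 0.17 with library size only (-0.33 to 0.19), Prdx1 -0.0397 with limma-voom (-0.24 to 0.52), and Srxn1 ranged from -0.25 (without niche metastatic 3) to 6.44. With metastasis in general macrophages, copies summed gave Gpx4 -0.0714 (-0.34 to 3.29) and Prdx1 0.078 (-0.56 to 0.32), while Gclc ranged from -0.71 to 0.19 and Nfe2l2 from -0.29 to 0.12. In niche macrophages, Slc7a11 was -0.35 with limma-voom (-0.51 to 0.33), Gclc -0.00088 without filter (-0.58 to 0.50), and Txnrd1 0.0456 with library size only and 0.0233 with 10 counts in every library (-0.47 to 0.46). Srxn1 ranged there from -1.54 (without niche metastatic 3) to 3.78 and Eefsec from -0.12 (without niche metastatic 2) to 7.08. For the difference of effects, Gpx1 was 0.0567 with library size only and 0.0262 with 10 counts in every library (-0.47 to 0.21), and Gclc ranged from -0.38 to 0.70.

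Same-numbered libraries of 3 groups had correlations of -0.0036 to 0.0329 in their deviations from group means, and differently numbered ones -0.0355 to 0.024. With replicates this uneven, such values cannot show whether the numbers pair the libraries. With the replicate number as a block, 117 genes and 1 member were called in metastatic marrow and 3 genes and 0 members with metastasis in general macrophages. Niche normal libraries were not blocked, because the replicate numbers of their columns match those of the other groups but not those of their own sample titles.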
